A study of Mus musculus with 16 samples.

Results

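The clustered protocadherins are 58 of the 20409 genes in the count table, taken as the genes whose symbols carry the alpha, beta or gamma cluster names of the protocadherin family (Pcdha, Pcdhac, Pcdhb, Pcdhga, Pcdhgb and Pcdhgc followed by a number). No measured value entered this choice. The alpha cluster has 14 members, which are 12 alternate isoforms and the C-type isoforms Pcdhac1 and Pcdhac2. The beta cluster has 22 members. The gamma cluster has 22 members, made up of 12 A-type, 7 B-type and 3 C-type isoforms (Pcdhgc3, Pcdhgc4 and Pcdhgc5). All 58 matched the RefSeq annotation of GRCm38.p6, the assembly of mm10, on chromosome 18: alpha at 36930285 to 37188897, beta at 37264998 to 37521419 and gamma at 37661775 to 37841873. RefSeq lists 1 of them, Pcdhgb8, as a transcribed pseudogene.

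These genes encode cadherin-like surface proteins that bind the same isoform on a neighbouring cell, and the set of isoforms a neuron shows is used in self-recognition and self-avoidance of its branches. Each variable exon has its own promoter, and in alpha and gamma it is spliced to constant exons shared by the whole cluster, while each beta gene has no shared constant exons. Alternate isoforms are chosen in a largely stochastic way in single neurons, through DNA methylation, CTCF and cohesin-dependent enhancer contact, whereas C-type isoforms are expressed more uniformly.

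The values come from cultured adult neural stem cells, which divide and can give rise to hippocampal neurons. They were prepared from dentate gyri of FVB/N males aged 8 to 10 weeks. The knockout group (KO) was Fmr1-/y, a constitutive loss of the X-linked gene for the RNA-binding protein FMRP, and the wild-type group (WT) came from littermates. Both were grown in FGF-2 and EGF and received cycloheximide, which stalls ribosomes, for 10 min before harvest. Each genotype had 4 cultures of independently isolated cells, and 1 lysate of each culture gave a cytoplasmic RNA library and a library of ribosome footprints (RPF), the fragments that ribosomes protect, so there were 8 cultures and 16 libraries. A library is named below by genotype, assay and replicate number, such as WT RNA 1. How many mice went into a culture is not given in the sources used here. Being bulk cultures, they cannot tell fewer cells that express an isoform from less RNA per cell, nor show which isoforms a single cell combined.

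Libraries held 5343042 to 6600023 estimated counts in RNA and 9430732 to 17220236 in footprints. Levels are given as CPM (counts relative to library size, scaled by TMM within an assay), which depend on gene length, or as the authors' TPM, which is per length. Footprints of Fmr1 were 129 to 150 CPM in WT and 12.7 to 27.0 CPM in KO cultures (-2.93 on the log2 scale, SE 0.22, edgeR adjusted p = 0.0140, or 0.143 with the replicate block), while Fmr1 RNA was 27.4 to 107 CPM in WT and 3.35 to 30.8 CPM in KO and did not pass the test. Of 12 neural stem and progenitor markers, none was at 0, and their summed RNA was 7658 to 10034 CPM in WT and 6866 to 7610 CPM in KO, with Vim, an intermediate filament gene, at 3625 ± 789 CPM in WT and 2219 ± 401 CPM in KO (SD, n = 4 cultures each). Among the 11 stem markers tested, 5 were higher in KO in RNA (median log2 fold change -0.02) and 3 in footprints (median -0.10). The lower RNA sum was thus not shared by all of these markers. The 8 astrocyte markers summed to 638 to 2503 CPM in WT and 1859 to 3261 CPM in KO footprints, where Sparcl1, a secreted astrocyte protein, differed by 2.62 on the log2 scale (SE 0.39, edgeR adjusted p = 0.189). In footprints 6 of these 8 were higher in KO (median log2 fold change 0.39). In RNA 2 of the 7 tested were higher in KO (median -0.15). The 10 neuroblast and neuron markers summed to 1231 to 2110 CPM in WT and 992 to 1316 CPM in KO footprints. Of the 9 tested in footprints, 4 were higher in KO (median log2 fold change -0.43). Of the 6 tested in RNA, 0 were higher (median -0.45). The 8 oligodendrocyte lineage markers summed to 1246 to 2077 CPM in WT and 1446 to 1735 CPM in KO footprints, with Mog at 0 there. Microglial markers stayed at or below 1.30 CPM and endothelial and mural markers at or below 5.66 CPM in a library, with Aif1, Cx3cr1 and Cldn5 at 0. Of these markers, edgeR called none between genotypes and DESeq2 called Sparcl1 in both assays and Stmn2 in footprints. The part of these marker differences in the values below was not tested.

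Gamma transcripts dominated the family. Summed over the 22 members, gamma RNA was 2010 to 3639 CPM in the WT cultures and 1963 to 3114 CPM in the KO cultures. Beta RNA summed to 467, 468, 229 and 242 CPM in WT cultures 1 to 4 and to 183, 319, 77.2 and 236 CPM in KO cultures 1 to 4. Alpha RNA was lowest, at 33.9 to 115 CPM in WT and 23.9 to 97.9 CPM in KO. A sum over a cluster does not depend on how reads matching several of its members were divided among them, so these totals are firmer than any single member's value.

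No cluster total separated the genotypes. The KO mean of beta RNA was 0.580 of the WT mean and that of beta footprints 0.619, and beta was lower in KO in each of the 4 pairs of cultures with the same number. In pair 4 the values nearly coincided (242 and 236 CPM in RNA, 297 and 297 CPM in footprints, where without TMM scaling the KO value was the higher, at 304 against 292), and the ranges of the groups overlapped in both assays. Beta RNA was also lower in cultures 3 and 4 than in cultures 1 and 2 within WT. Gamma KO means were 0.886 of WT in RNA and 0.850 in footprints, and the footprint ratio turned above 1 when WT culture 1, the highest, was left out (log2 ratio 0.14 in place of -0.23). Alpha KO means were 0.736 and 0.801 of WT.

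Within gamma, 1 isoform held most of the transcript. Pcdhgc3, a C-type isoform that binds the Wnt pathway scaffold Axin1, made up 83.0% to 92.4% of gamma TPM in the 8 RNA libraries and 68.7% to 84.8% in the 8 footprint libraries. Its RNA was 3083, 1689, 1898 and 2826 CPM in WT cultures 1 to 4 and 2735, 1661, 1991 and 1974 CPM in KO cultures 1 to 4. The groups overlapped, and Pcdhgc3 had the smallest spread over cultures of the gamma members ranked for it, with an SD of 0.351 on log2(CPM + 1) in RNA. The other gamma C-types were far lower. Pcdhgc4, known for its role in the survival of cortical interneurons, had 2.14 to 9.35 CPM in RNA and 0.101 to 3.80 CPM in footprints. Pcdhgc5, which is known to associate with GABA-A receptors, had 0.497 to 2.61 CPM in RNA and 0.0726 to 3.99 CPM in footprints.

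The A-type and B-type gamma isoforms, which are the stochastically chosen ones in neurons, differed from culture to culture in which one led. In RNA, Pcdhga1 led in WT culture 1 with 41.0% of the TPM of the 19 A-type and B-type members and in WT culture 3 with 54.7%. Pcdhga7 led in WT culture 2 (34.1%) and Pcdhga8 in WT culture 4 (67.0%). Among KO cultures, Pcdhga7 led in cultures 1, 2 and 4 with 34.1%, 39.5% and 60.9%, and Pcdhga6 led in culture 3 with 29.6%. Pcdhga5 was second in WT cultures 1 and 3 at 31.0% and 22.6%. No single isoform was the leader of all cultures of a genotype.

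**Figure D1:**
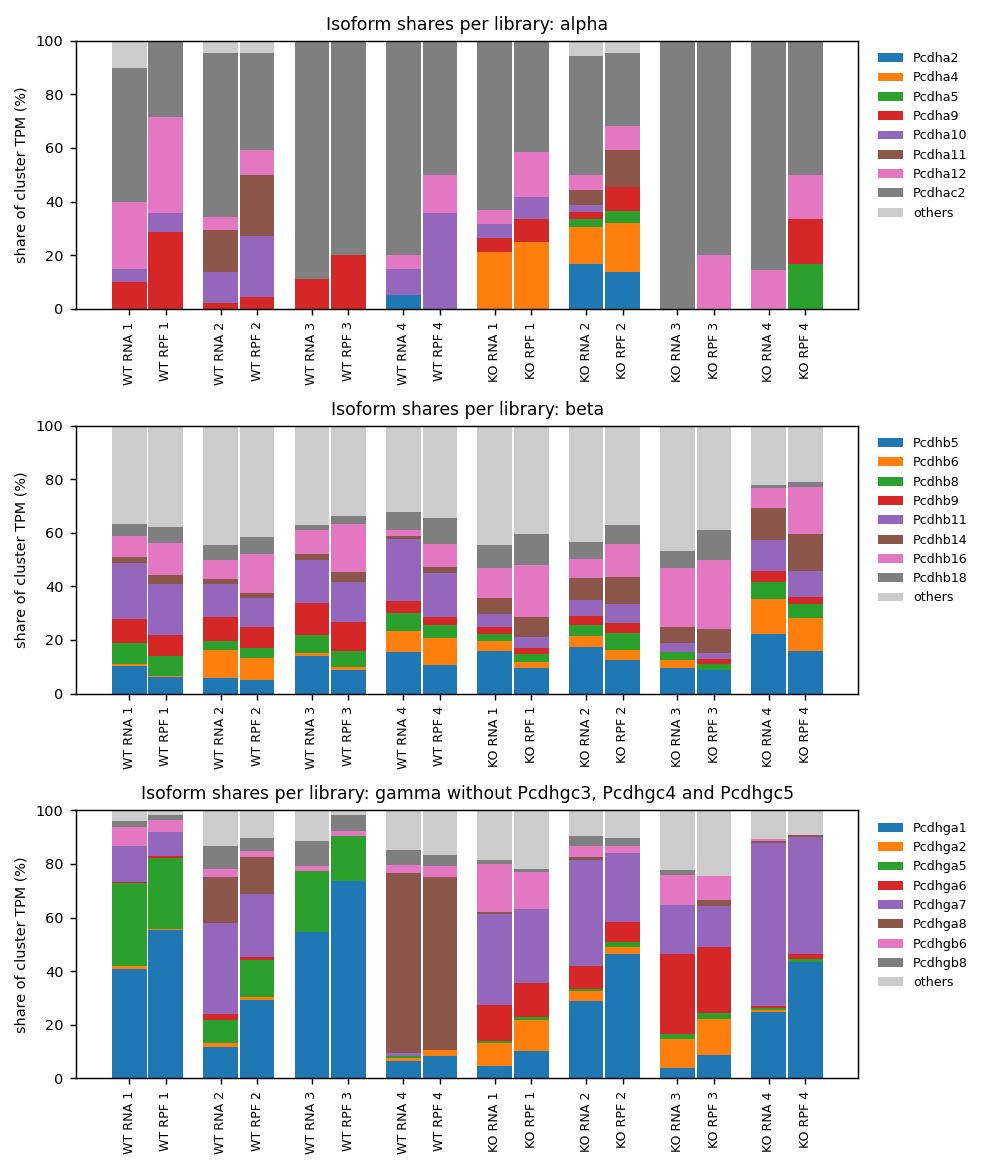
Share of each isoform in the summed TPM of its cluster (%, y axis) in each of the 16 libraries (x axis), with RNA beside footprints of the same culture, for alpha, beta, and gamma without its C-types; coloured bars are the 8 members with the highest mean share and grey the rest. Pcdhac2 is first in alpha in each library except WT RPF 1, beta is spread over many isoforms, and the leading gamma isoform changes between cultures. The gamma isoform that leads in RNA is first or second in footprints of the same culture in 8 of 8. The leader is the same in both assays in 5 of 8 cultures, not counting a tie in KO RPF 4.

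The number of isoforms in use can be expressed as an effective number, the inverse Simpson index of the TPM shares, which is the number of equally abundant isoforms that would give the same concentration. For A-type and B-type gamma isoforms it was 3.49 ± 1.50 in WT and 4.51 ± 1.78 in KO RNA, and 3.02 ± 1.67 in WT and 5.23 ± 2.56 in KO footprints (SD, n = 4 cultures each). The highest was KO RPF 3 with 7.82 and the lowest WT RPF 3 with 1.74, and the genotypes overlapped in both assays. With the C-types included, the gamma effective number fell to 1.17 to 1.43 in RNA, because the index is then governed by Pcdhgc3. These choices of members were made after the values had been seen.

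Levels of single gamma isoforms ranged over orders of magnitude. Pcdhga7 RNA was 73.1, 105, 0.823 and 4.69 CPM in WT cultures 1 to 4 and 127, 116, 30.9 and 245 CPM in KO cultures 1 to 4. The highest and lowest RNA libraries of Pcdhga7 differed 298-fold, with 5 counts in the lowest, WT RNA 3, so this fold is imprecise. In footprints they differed 125-fold, with 10 counts in the lowest. WT cultures 3 and 4 stood below the 6 other cultures. Pcdhga8, also named after its values were seen, had RNA of 0.392, 53.0, 1.48 and 201 CPM in WT and 3.04, 1.66, 0.488 and 1.98 CPM in KO, so it was abundant in WT cultures 2 and 4 alone. Pcdhga1 RNA was 221, 35.3, 88.3 and 18.8 CPM in WT and 17.4, 84.1, 6.34 and 101 CPM in KO, with high and low cultures in both genotypes. Pcdhga10, outside the rule for named members and singled out after its values were seen, exceeded 2.30 CPM in KO culture 4 alone, with 8.98 CPM in RNA and 8.79 CPM in footprints.

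Alpha isoforms were few and sparse. Pcdhac2, a C-type isoform needed for the spacing of serotonergic axons, led in 8 of 8 RNA libraries with 44.4% to 100% of alpha TPM and in 7 of 8 footprint libraries with 27.3% to 80%. The exception was WT RPF 1, led by Pcdha12. Pcdhac2 RNA was 28.0, 70.7, 27.5 and 54.0 CPM in WT and 34.3, 45.6, 23.1 and 18.7 CPM in KO, with overlapping groups. The other C-type, Pcdhac1, had 0 to 3.64 CPM in RNA. Summed TPM of alpha was 5 to 44 in a library and TPM was rounded to whole numbers, so alpha shares move in coarse steps.

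Of the 12 alternate alpha isoforms, between 0 and 8 reached 10 counts in an RNA library. The isoforms present differed by culture. Pcdha4 had 0 counts in each WT RNA library and 63, 78, 0 and 3 counts in KO RNA libraries 1 to 4. Its footprints were 5, 0, 0 and 1 counts in WT and 141, 188, 0 and 14 in KO, so its signal lay in KO cultures 1 and 2 and it was too low elsewhere to enter the tests. Pcdha11 RNA was 17.6 CPM in WT culture 2 and 5.63 CPM in KO culture 2, with 0.507 CPM or less in the 6 other cultures. Pcdha10 RNA was 2.55, 12.0, 0.988 and 6.41 CPM in WT and 2.37, 1.66, 0 and 0.152 CPM in KO, and Pcdha12 RNA was 1.32 to 12.5 CPM in WT and 0.488 to 4.47 CPM in KO. In KO culture 3 the 13 alpha members other than Pcdhac2 together had 5 counts in RNA.

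Beta isoforms were used broadly. The effective number of beta isoforms was 11.4 ± 2.23 in WT and 11.3 ± 2.13 in KO RNA, and 11.2 ± 0.599 in WT and 10.6 ± 2.45 in KO footprints (SD, n = 4 cultures each), out of 22 members. Between 12 and 21 of the 22 had at least 10 counts in an RNA library. Pcdhb1, named after its values were seen, had at most 0.290 CPM in any library. The leading isoform differed between the genotypes in RNA: Pcdhb11 led in WT cultures 1 to 4 with 20.8%, 12.4%, 16.3% and 23.3% of beta TPM, while Pcdhb5 led in KO cultures 1, 2 and 4 with 16.05%, 17.4% and 22.3% and Pcdhb16 in KO culture 3 with 21.9%. In footprints Pcdhb16 was first in WT cultures 2 and 3 and in KO cultures 1, 3 and 4, and tied with Pcdhb5 at 12.4% in KO culture 2.

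The isoform pattern of a culture was seen in both of its libraries. Each profile was taken as log2(CPM + 1) of the 48 members with a mean of at least 1 CPM in both assays, minus the mean of each member over the 8 libraries of its assay. RNA and footprint profiles of the same culture correlated over members at r = 0.838 to 0.949 (median 0.906), and in 16 of 16 libraries the best match in the other assay was the library of the same culture. The match held in 16 of 16 libraries for the 21 beta and for the 20 gamma members used, and in 15 of 16 for the 7 alpha members used. Over all 10863 genes tested in both assays the same count was 16 of 16 with a median r of 0.766, so matching to its own culture is shared by the rest of the transcriptome. RNA and footprints of a culture come from the same lysate and the members share exons and reads, so these correlations are descriptions.

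**Figure D2:**
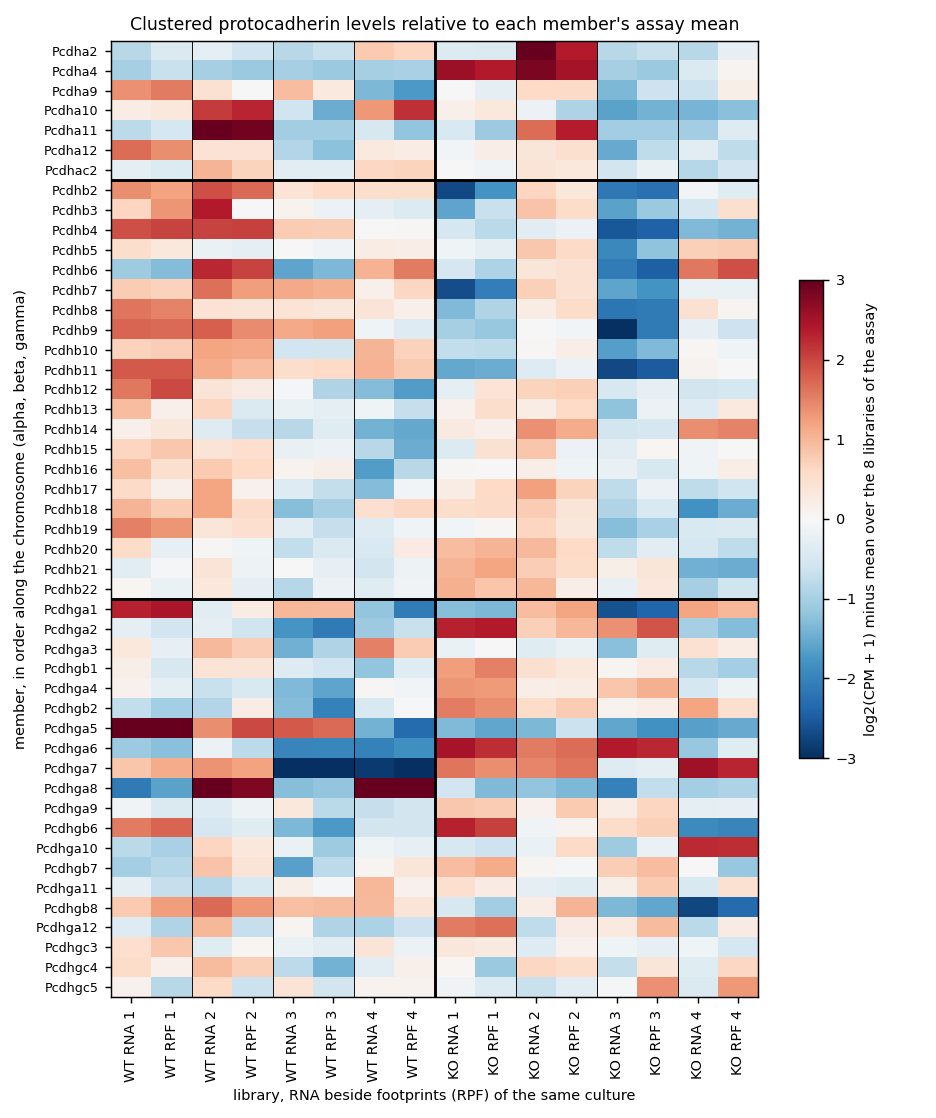
log2(CPM + 1) minus the member's mean over the 8 libraries of an assay (colour) for the 48 members with a mean of at least 1 CPM in both assays (y axis, in order along the chromosome) in the 16 libraries (x axis). Adjacent RNA and footprint columns of a culture show the same pattern, as for Pcdhga8 in WT cultures 2 and 4 and Pcdhga6 in KO cultures 1 to 3.

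Between cultures, the members' profiles followed genotype more than replicate number. In the 24 pairs of an RNA and a footprint library from different cultures of the same genotype, r had a median of 0.151 and was above 0 in 18. In the 32 pairs across genotypes r was below 0 in each, from -0.683 to -0.0529. Subtracting a mean over the 8 libraries pulls the average correlation between libraries below 0, so the sign alone is partly fixed by the method. Over all genes, libraries of the other genotype with the same replicate number correlated above 0 in 8 of 8 pairs (0.0942 to 0.366), which the members did in none of 8. KO cultures 1 and 3 were the most alike of different cultures, at r = 0.767 in RNA and 0.738 in footprints, followed by WT cultures 1 and 3 at 0.508 and 0.535. Cultures of 1 genotype could also differ. KO culture 4 had r of -0.126 and -0.173 with KO cultures 1 and 3 in RNA. WT cultures 1 and 4 had r of -0.287 in RNA and -0.382 in footprints, lower than several pairs of a WT and a KO culture.

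**Figure D3:**
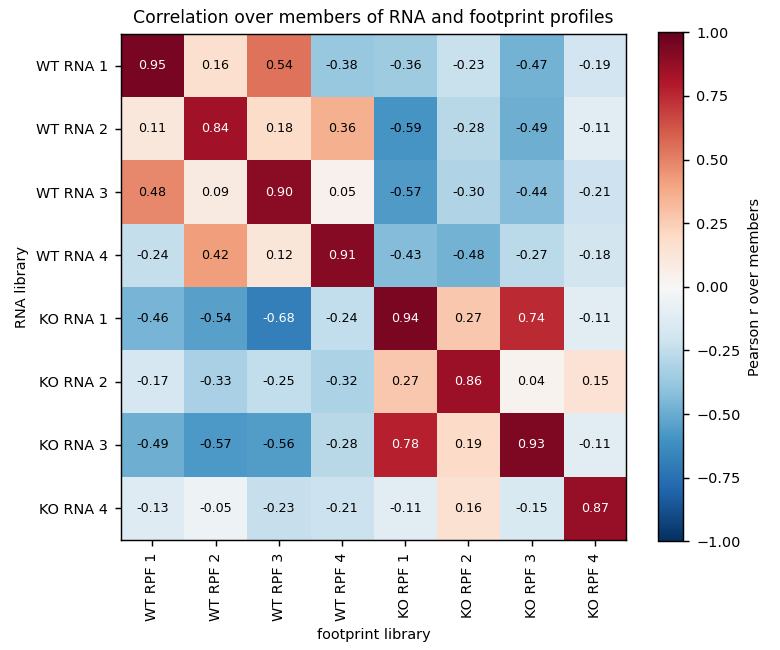
Pearson r over the 48 members between each RNA library (rows) and each footprint library (columns), after subtracting each member's mean over the 8 libraries of its assay. The diagonal, which pairs libraries of the same culture, runs from 0.84 to 0.95, and the blocks that pair WT with KO are negative.

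Members varied more from culture to culture than genes at large. The SD of log2(CPM + 1) over the 8 RNA libraries had a median of 1.02 over the 41 members tested and 0.439 over all 11097 genes tested, and 25 of the 41 lay above the 90th percentile of all genes. In footprints the medians were 0.903 over 43 members and 0.348 over 11472 genes, with 28 of the 43 above that percentile. Among genes with a mean of at least 5 CPM, 22 of 31 members in RNA and 23 of 30 in footprints were above it. The spread includes any difference between genotypes, since it was taken over both.

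Loss of Fmr1 was then compared member by member in fits over the whole table. In RNA, edgeR's quasi-likelihood test called 0 of 41 members at an adjusted p under 0.05, where 0.00901% of all genes were called, and the smallest adjusted p of a member was 0.973. At an unadjusted p under 0.05 there were 11 members (26.8%), against 1.87% of all genes tested. Of these, 4 had higher values in KO (all genes 0.802%) and 7 lower values (all genes 1.07%). Ranges of WT and KO did not overlap for 4 members (1.28% of all genes). In footprints edgeR called 0 of 43 members (0.0349% of all genes called), and 17 (39.5%) were at an unadjusted p under 0.05 against 4.59% of all genes. Of these, 7 had higher values in KO (all genes 2.06%) and 10 lower values (all genes 2.54%). Ranges did not overlap for 6 members in footprints (1.87% of all genes). DESeq2 called 3 members in RNA (0.18% of all genes called by DESeq2) and 6 in footprints (0.715% of all genes). In RNA 2 of these were higher and 1 lower in KO, and in footprints 3 were higher and 3 lower. Not every DESeq2 call is stated for its member below. The 17 members in RNA and 15 in footprints that were too low to be tested are mostly alpha alternates and minor gamma isoforms.

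**Figure D4:**
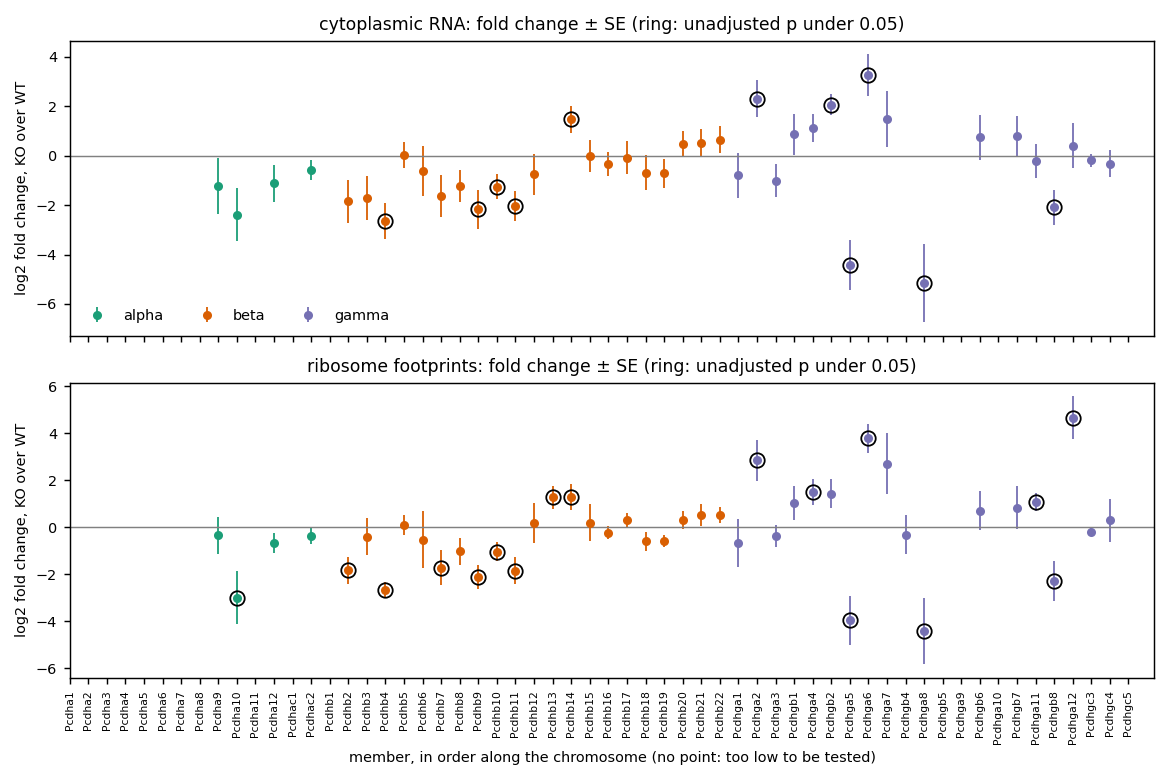
log2 fold change of KO over WT with its SE (y axis) for each member tested, in order along the chromosome (x axis), in RNA (upper) and footprints (lower); rings mark an unadjusted p under 0.05 and none passed after adjustment with edgeR. Values below 0 gather in Pcdhb2 to Pcdhb11, and gamma holds the widest values in both directions.

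The members at an unadjusted p under 0.05 with higher values in KO were gamma isoforms and Pcdhb14 in RNA, and gamma isoforms, Pcdhb13 and Pcdhb14 in footprints. Pcdhgb2 RNA was 3.14, 2.76, 1.81 and 4.07 CPM in WT cultures 1 to 4 and 19.1, 9.11, 6.501 and 14.8 CPM in KO cultures 1 to 4. The 4 KO values lay above the 4 WT values, with a log2 fold change of 2.06 (SE 0.44, edgeR unadjusted p = 0.000958, adjusted p = 0.973), and DESeq2 called it (adjusted p = 0.0122). Among footprints of Pcdhgb2, the WT cultures ran from 0.507 to 6.23 CPM and the KO cultures from 6.03 to 15.1 CPM, overlapping slightly.

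Pcdhga6 footprints were 2.105, 3.34, 0.913 and 1.08 CPM in WT and 33.8, 22.9, 34.9 and 4.81 CPM in KO. The groups did not overlap and KO culture 4 was far below the other KO cultures. The log2 fold change was 3.78 (SE 0.62, edgeR adjusted p = 0.210), and 3.26 (SE 0.85) in RNA, where KO culture 4 with 3.20 CPM lay within the WT range of 1.25 to 7.05. Without KO culture 4, edgeR called Pcdhga6 in footprints (log2 fold change 4.04, adjusted p = 0.0282). Without other single cultures the edgeR adjusted p in footprints was up to 0.696. DESeq2 called Pcdhga6 in both assays, with adjusted p = 0.0181 in RNA and 3.5e-08 in footprints.

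Pcdhga12 footprints had 0, 2, 0 and 2 counts in WT cultures 1 to 4 and 66, 20, 28 and 13 counts in KO cultures 1 to 4. Its RNA had 6, 30, 12 and 3 counts in WT and 43, 4, 15 and 4 in KO, with overlapping groups. The fitted footprint fold change of 4.65 on the log2 scale (SE 0.92, edgeR adjusted p = 0.347) depends on the prior count, given 4 WT counts in all. Pcdhga2, outside the rule for named members and chosen after its values were seen, ran from 0.304 to 2.83 CPM across WT footprints and from 1.30 to 28.6 CPM across KO footprints, and DESeq2 called it (adjusted p = 0.0472) while edgeR did not (adjusted p = 0.812).

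Pcdhga5, Pcdhga8 and Pcdhgb8 were the gamma isoforms with lower values in KO at an unadjusted p under 0.05, in both assays. Pcdhga5 RNA was 167, 25.4, 35.1 and 2.82 CPM in WT and 3.04, 2.98, 2.44 and 2.28 CPM in KO. WT cultures 1 to 3 were high, and WT culture 4 was as low as KO. The log2 fold change was -4.41 (SE 1.02, edgeR adjusted p = 1.0) in RNA and -3.96 (SE 1.04, adjusted p = 0.721) in footprints, and DESeq2 called both (adjusted p = 0.000212 and 0.0329). Without single cultures the RNA value ran from -4.82 to -2.96. Pcdhgb8, the transcribed pseudogene, is outside the rule for named members. Its RNA was 14.1, 27.1, 15.3 and 16.1 CPM in the 4 WT cultures and 5.24, 9.11, 2.44 and 0.304 CPM in the 4 KO cultures. All WT cultures lay above all KO cultures (-2.09 on the log2 scale, SE 0.72, edgeR unadjusted p = 0.0164, adjusted p = 1.0), while its footprints overlapped.

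Among beta members, Pcdhb4 had the smallest p of the family in footprints. Its footprints were 45.5, 46.1, 18.1 and 10.6 CPM in WT cultures 1 to 4 and 5.49, 9.03, 1.11 and 3.24 CPM in KO cultures 1 to 4. No KO value reached the lowest WT value. The log2 fold change was -2.68 (SE 0.34, edgeR adjusted p = 0.0808), and without KO culture 4 it was -2.95 with an adjusted p of 0.0463. Without other single cultures the edgeR adjusted p in footprints was up to 0.326. DESeq2 called Pcdhb4 in footprints (adjusted p = 7.4e-12). Pcdhb4 RNA was 32.0, 34.2, 13.7 and 7.66 CPM in WT and 5.07, 5.96, 0.488 and 2.43 CPM in KO cultures, again without overlap (-2.64 on the log2 scale, SE 0.71, edgeR adjusted p = 1.0).

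Pcdhb11, the leading beta isoform of WT RNA, also had ranges that did not overlap. Its RNA was 97.8, 58.9, 38.9 and 55.8 CPM in WT cultures and 8.62, 20.2, 3.25 and 28.9 CPM in KO cultures (-2.04 on the log2 scale, SE 0.59, edgeR adjusted p = 1.0). Its footprints were 102, 53.5, 43.0 and 48.7 CPM in WT and 9.30, 24.5, 4.08 and 28.3 CPM in KO cultures (-1.85 on the log2 scale, SE 0.58, edgeR adjusted p = 0.849). Pcdhb9 footprints were 44.6, 36.8, 32.4 and 9.73 CPM in WT and 5.42, 12.4, 2.23 and 8.24 CPM in KO, with WT culture 4 within the KO range. Its log2 fold change was -2.099 (SE 0.51, edgeR adjusted p = 0.595), and DESeq2 called it (adjusted p = 0.0062). In contrast, Pcdhb5 RNA was 27.6 to 46.9 CPM in WT and 7.64 to 56.3 CPM in KO, and Pcdhb16 RNA 5.47 to 37.8 CPM in WT and 16.7 to 22.9 CPM in KO, both overlapping.

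Position along the beta cluster went with these values. Of the 11 tested members from Pcdhb2 to Pcdhb13, 10 had RNA fold changes below 0, with a median of -1.62, and the 9 from Pcdhb14 to Pcdhb22 had 5 below 0 and a median of -0.01. In footprints the medians were -1.03 over 12 and 0.31 over 9, beside 0.01 over all genes in both assays. Pcdhb2 to Pcdhb13 held 70.7%, 72.9%, 74.4% and 79.9% of beta CPM in WT RNA libraries 1 to 4 and 37.7%, 53.0%, 28.6% and 70.6% in KO. In footprints the shares were 66.3%, 67.3%, 64.8% and 67.0% in WT and 30.4%, 52.2%, 26.2% and 57.5% in KO. WT cultures were close together in footprints and each KO culture was below them, while KO culture 4 nearly met the lowest WT share in RNA. The division between Pcdhb13 and Pcdhb14 was set after the values had been seen, so no test was made of it.

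Neighbouring beta genes varied together over the WT and KO cultures taken as 1 set. Over the 8 RNA libraries, the 18 adjacent pairs of beta members had a median r of 0.740, pairs 2 to 3 genes apart 0.547, and the 139 pairs at least 4 apart 0.355. In footprints these medians were 0.683, 0.513 and 0.148. Gamma members showed no such gradient, with medians of -0.02 for 11 adjacent pairs and 0.13 for 73 distant pairs in RNA. The points share libraries and the overall beta level of each culture, and near-identical neighbours may exchange reads. The genotype difference along the beta cluster described above also enters these correlations, so they are not a separate observation from it. The part of each was not tested.

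Translational efficiency (TE), the change of footprints relative to RNA between genotypes, was tested as the interaction of assay and genotype. EdgeR and DESeq2 each called 0 of 41 members (0% of all genes called by either tool), and 1 member (2.44%) was at an unadjusted p under 0.05 against 0.129% of all genes. It was Pcdhga12 at 4.20 (SE 1.43, edgeR unadjusted p = 0.0107, adjusted p = 1.0), which rests on the 4 WT footprint counts above. The next smallest were Pcdhga11 at 1.31 (SE 0.81), Pcdhb3 at 1.32 (SE 1.28) and Pcdhgb2 at -0.65 (SE 0.79). The SE of single members was large, also for a member with many counts such as Pcdhga7 (1.39, SE 2.00). These fits did not pair the RNA and footprint libraries of a culture, so the spread between cultures entered the SE. For Pcdhga7 the log2 ratio of footprints to RNA within a culture had an SD of 0.52 over all cultures. Moderate differences in TE therefore lay within the error of these unpaired fits. With a block by culture, edgeR also called 0 members, and 1 was at an unadjusted p under 0.05.

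Footprints relative to RNA were also compared between members. This log2 ratio of CPM + 1, averaged over the 8 cultures, had a median of 0.35 over 15 beta members, -0.33 over 12 gamma members and -0.11 over 9424 genes. Pcdhb16 had 1.18 ± 0.42 (SD, n = 8 cultures), above 0 in 8 of 8, and stood at the 87.0th percentile of genes. Pcdhgc3 had -1.11 ± 0.39 and Pcdhac2 -1.02 ± 0.23, both below 0 in 8 of 8 and at the 18.8th and 20.9th percentiles. Among gamma members, Pcdhga1 alone had a mean above 0 (0.57 ± 0.43). RNA libraries cover untranslated and constant exons that footprints cover to a different extent, so the ratio compares genes only roughly, and the part of these exons was not tested.

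**Figure D5:**
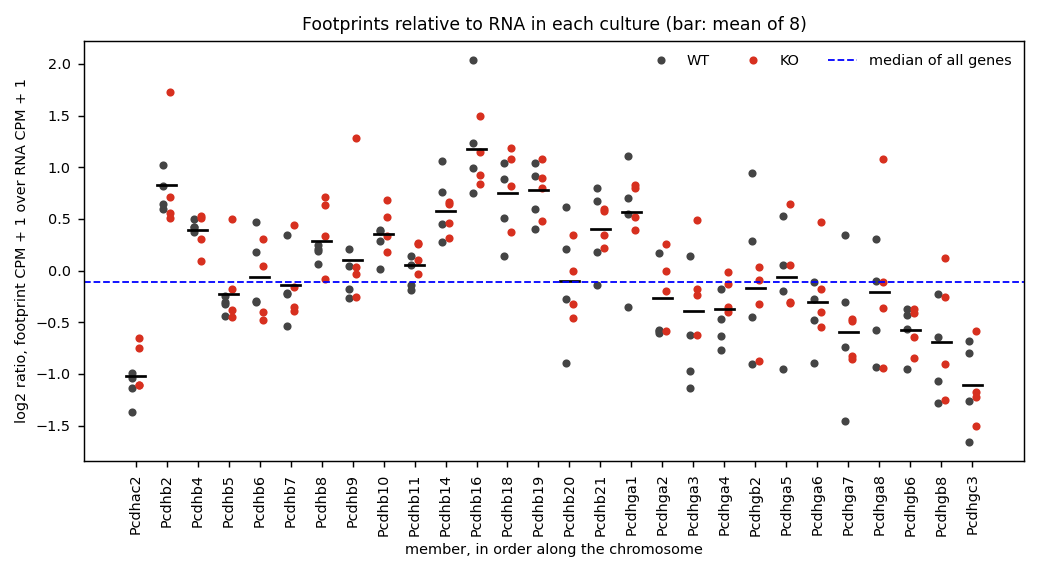
log2 ratio of footprint CPM + 1 over RNA CPM + 1 (y axis) in each of the 8 cultures (points, WT grey and KO red) for 28 members with enough signal (x axis), with the mean as a bar and the median of all genes as a dashed line. Pcdhac2 and Pcdhgc3 lie lowest, and Pcdhb16 highest.

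Genes of the surrounding pathways were taken from lists. Of 26 tested genes for promoter choice and silencing (CTCF, cohesin and its loader, DNA methylation and H3K9 methylation), edgeR and DESeq2 called 0 in RNA, footprints or TE, and 0 were at an unadjusted edgeR p under 0.05. The median RNA fold change was 0.11 on the log2 scale, beside 0.01 over all genes. The smallest p was that of Tet2, a methylcytosine dioxygenase, in footprints (edgeR unadjusted p = 0.0583). Of 20 tested partners and processing genes in RNA and 19 in footprints (kinases, gamma-secretase, the WAVE complex and Axin1, for example), both tools called 0 and edgeR had 0 at an unadjusted p under 0.05, with Ncstn, a gamma-secretase subunit, nearest in footprints (unadjusted p = 0.0577). Of 10 tested non-clustered protocadherins, which lie outside the clusters and have no shared variable exon array, both tools called 0. Pcdh11x, an X-linked member, was at an unadjusted p under 0.05 with lower values in KO footprints (47.5 ± 15.7 CPM in WT, 26.7 ± 11.04 CPM in KO, SD, n = 4, edgeR unadjusted p = 0.0197, adjusted p = 0.956).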

How the data were processed

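The authors deposited RSEM estimated counts per gene, which are whole numbers, and a TPM table rounded to whole numbers (a score here, since rounding removed its fraction). Per the submitters' processing notes, the tools included RSEM 1.2.11, TopHat2 2.0.9 and Bowtie2 2.1.0, beside bedtools 2.22.0, SAMtools 0.0.19 and cutadapt 1.7.1, with build mm10. How molecular identifiers (5 nt in replicates 1 and 2, 8 nt in 3 and 4, per the labels' descriptions) were collapsed, and any use of strand in counting, is not given in the sources used here. Reads matching more than 1 gene are shared out by RSEM's model, so single values of similar paralogs, of genes sharing constant exons and of overlapping genes are uncertain. Rows joining a Pcdha symbol to a -g suffix are outside the rule and held at most 37 counts in a library. Of 20436 rows, 27 without a gene symbol (0.244% to 0.422% of a library) were left out.

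Counts were tested over the whole table with edgeR 4.0.16 (R 4.3.3, limma 3.58.1): TMM scaling, a low-count filter (filterByExpr, by genotype), and the two-sided quasi-likelihood test of glmQLFit and glmQLFTest, Benjamini-Hochberg adjustment over all genes, threshold 0.05. RNA was fitted with genotype, footprints with genotype and identifier length, and TE as the assay by genotype interaction over 16 libraries. DESeq2 1.42.0, other scaling, no filter, a replicate block and leaving out each culture were alternatives. The scripts were tested on simulated data. A fold change is KO over WT on the log2 scale, with its SE taken from the F statistic. Shares come from the deposited TPM score. Counting precision and culture spread both enter the SE.

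Members named are the 4 with the smallest p per comparison, the 3 with the highest TPM per cluster and assay, the 2 with the largest and the 2 with the smallest spread per cluster, and the C-types; Pcdhb1, Pcdhb14, Pcdhga2, Pcdhga8, Pcdhga10 and Pcdhgb8 are outside this rule and were named after their values were seen. Members and lists were chosen with earlier results of these data known. Lists were for promoter choice, partners and processing, non-clustered protocadherins and cell type markers.

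WT and KO share replicate numbers in the sample titles. Deviations from group means of same-numbered WT and KO libraries correlated over all genes at 0.525 to 0.634 in RNA and 0.404 to 0.569 in footprints. For RNA and for footprints the replicate block was therefore run as an alternative that pairs same-numbered cultures. For TE the block was the culture, which pairs the RNA and footprint libraries of a culture. The main tests use neither pairing. Over members alone, same-numbered WT and KO libraries correlated at r of -0.142 to 0.121.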

Additional observations from a re-analysis of the deposited data

Results flagged for a closer look

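In groups of 4 cultures, a sample was marked when its gap to the nearest other sample was larger, relative to the whole range, than Dixon's critical value. Of 128 such groups of member levels, 7 were marked, beside a nominal share of about 1 in 20 for independent groups. That share does not apply directly here, since Pcdha11 was named for its large spread and the assays of a culture are linked. The 128 groups did not cover all groups of all members. Pcdha11 was marked in each group, with culture 2 the highest: 17.6 CPM in WT RNA, 5.63 CPM in KO RNA, 15.8 CPM in WT footprints and 10.7 CPM in KO footprints, where the next highest culture had 0.469, 0.507, 0.581 and 0.740 CPM. Pcdhac1 had 3.64 CPM in KO RNA of culture 2, with 0.338 CPM next. Pcdhb3 RNA was 27.7 CPM in WT culture 2, with 7.65 CPM next, while its WT footprints were highest in culture 1 at 5.95 CPM, with 1.75 CPM in culture 2. RNA and footprints of 1 culture are not independent, and replicates of 1 group are few.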

How the results depend on the processing

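No fold change of the 35 followed changed sign under any alternative run. With DESeq2, 3 members passed in RNA (0.18% of all genes) and 6 in footprints (0.715%), where edgeR called 0. Leaving out 1 culture at a time, edgeR called 0 to 2 members in footprints (2 without KO culture 4, with 0.12% of all genes) and 0 in RNA and TE, and 9 to 13, 12 to 20 and 1 to 2 members were at an unadjusted p under 0.05 in RNA, footprints and TE, against 1.4% to 3.4%, 3.27% to 6.47% and 0.109% to 0.374% of all genes. Without the filter on low counts, 3 of 58 members were at an unadjusted p under 0.05 in TE, against 1.19% of all genes. With the replicate block (for TE, a block by culture), edgeR called 0 members in RNA, footprints and TE, and 16, 12 and 1 were at an unadjusted p under 0.05, against 6.38%, 5.78% and 0.764% of all genes. The block changed no call of a member, and Fmr1 footprints then had -2.93 with an adjusted p of 0.143. Leaving out WT culture 2, 3 or 4 or KO culture 1 or 2 also left Fmr1 footprints short of the threshold, at adjusted p values of 0.0565 to 0.134. Without its C-types, an alternative chosen after seeing the data, the mean effective number of gamma isoforms was 4.00 in RNA and 4.12 in footprints in place of 1.31 and 1.58, by the construction of the index. The match to the own culture was 14 of 14 libraries without any 1 culture. Why DESeq2 called more members was not tested. Members with few counts are limited by depth, and alpha shares by the rounding of TPM.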
